A study of Mus musculus with 12 samples.

Results

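The genes described here are 35 caspases, BCL2 family members and other cell death genes, chosen by name and by their known place in apoptosis, inflammatory cell death or necroptosis, out of 52550 genes in the deposited tables. RNA-seq was performed on the lines D2A1 and D2.OR, mouse mammary cancer cells derived from separate tumors of D2 hyperplastic alveolar nodules. Each line was grown in 2D on plastic and in 3D on top of growth-factor-reduced Matrigel, which gave 4 groups (D2A1 2D, D2A1 3D, D2.OR 2D and D2.OR 3D) of 3 replicates and 12 libraries in all. Replicate 1, 2 and 3 each formed 1 batch across the 4 groups, and each batch was run on its own sequencing lane. The lines carried no treatment or engineered allele in these samples, and RNA of several wells was pooled for each culture. Each line stands for the 1 tumor it came from, so a difference between the lines is a difference between these 2 lines. The study uses D2.OR in 3D as a model of dormancy and D2A1 in 3D as its growing counterpart.

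Apoptosis runs along 2 connected routes. In the mitochondrial route, BH3-only proteins bind and block the BCL2-like survival proteins or switch on the pore-forming effectors BAK and BAX, the outer mitochondrial membrane opens, and released cytochrome c lets caspase-9 cut the executioner caspases. In the receptor route, TNF family receptors recruit the adaptors TRADD and FADD, and caspase-8 is switched on unless FLIP, the product of Cflar, holds it back. Where caspase-8 is blocked, RIPK1 and RIPK3 can instead drive MLKL to rupture the plasma membrane in necroptosis, while inhibitor of apoptosis proteins (IAPs) restrain both routes. Most of this control acts on proteins, which were not measured here, and an RNA level says nothing of whether a caspase was cut.

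Library totals ran from 47589611 to 73325069 expected counts, with a median of 61747126. The replicate 1 libraries stood apart from the others of their group in some genes, for example with 2482 TPM (the transcript-share unit of RSEM, a level per length) of the mesenchymal gene Vim against 733 and 794 in D2A1 2D, and with 183 TPM of the epithelial cadherin gene Cdh1 against 22.2 and 23.0 in D2.OR 2D. The luminal epithelial keratin Krt8 was at 227 to 1022 TPM in D2.OR and at 0.78 to 2.31 TPM in D2A1, and Cdh1 and Epcam were at most 0.28 and 0.17 TPM in D2A1, whereas the keratin partner Krt18 was at 92.7 to 294 TPM in D2A1 and 125 to 666 TPM in D2.OR. Of the mesenchymal markers, Vim passed as higher in D2.OR and Zeb1 as higher in D2A1 in both cultures (edgeR adjusted p under 0.05). Pdgfrb passed as higher in D2.OR in 3D by the same test. Cdh2 had at most 2 counts in any D2A1 library and at most 0.14 TPM in D2.OR. It passed the filter on low counts only through D2.OR, so its higher level there is given as a description. The defining leukocyte gene Ptprc was at most 0.05 TPM in the 12 libraries. The summed leukocyte markers were 6.39 to 32.19 TPM in D2A1 and 2.41 to 7.01 TPM in D2.OR, nearly all of it Cd68, and the summed endothelial markers were at most 0.63 TPM. The summed adipocyte markers were 7, 87.9 and 27.4 TPM in D2.OR 3D, 0.15, 1.97 and 0.21 TPM in D2.OR 2D and at most 0.12 TPM in D2A1, and the part of these differences in the results below was not tested. In bulk RNA, fewer cells of a type and less RNA per cell cannot be told apart.

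By their level per length, averaged over the 12 libraries, the survival genes Mcl1 (241 TPM, range 153 to 321) and Bcl2l1 (187 TPM, range 67.2 to 355), which encodes BCL-XL, were the most abundant of the 35. Casp1, Cycs (cytochrome c), Tnfrsf1a, Casp12 and Bak1 followed, with means from 97.3 to 131 TPM. At the other end, Bcl2 itself averaged 5.85 TPM and the adaptor Fadd 3.90 TPM. The last 3 places were held by Bik, Ripk3 and Hrk, all with a mean of at most 0.124 TPM. Bik, a BH3-only gene, had at most 9 counts and Ripk3 at most 13 counts in any library, so that these 2 genes fell below the filter on low counts and 33 of 35 genes were tested. The upper end of the range was shared by neighbours in this order: the lowest library of Mcl1 lay within the range of Bcl2l1, and the ranges of Casp1, Cycs and Tnfrsf1a overlapped.

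**Figure D1:**
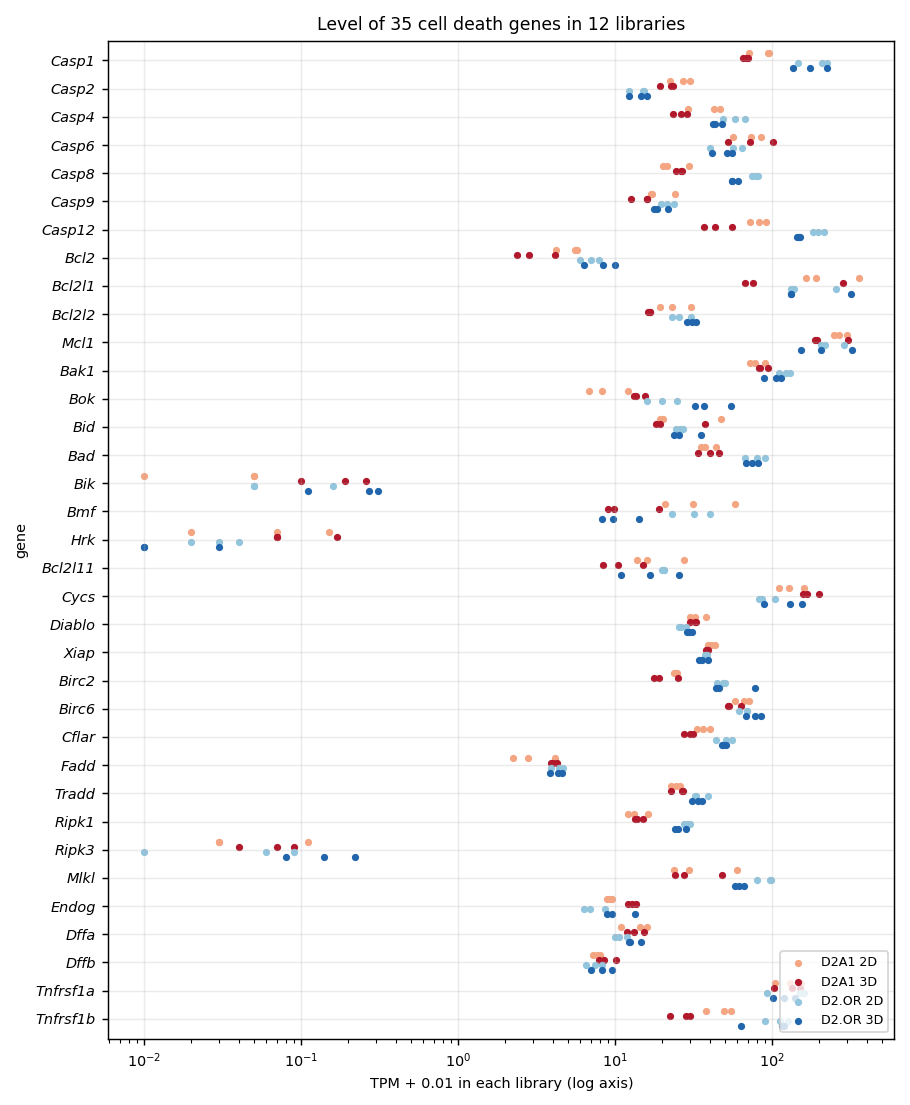
TPM + 0.01 of the 35 genes (log axis) in each of the 12 libraries, 1 point a library and 1 colour a group. Mcl1 and Bcl2l1 lie at the high end, Bik, Ripk3 and Hrk at or near 0, and the points of D2.OR lie to the right of those of D2A1 for Casp8, Casp12, Bad, Ripk1 and Tnfrsf1b.

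The comparison of the 2 lines asked how far their cell death genes differ within 1 kind of culture. In 2D, 16 of the 33 tested genes passed, 15 with more RNA and 1 with less in D2.OR, by edgeR's quasi-likelihood test at a Benjamini-Hochberg adjusted p under 0.05. Of all 16823 genes tested, 49.8% differed between the lines in 2D, with 25.4% higher and 24.4% lower in D2.OR, so the share of members that differed (48.5%) was near the background, whereas the calls leaned to D2.OR. In 3D, 19 of the 33 differed (16 higher and 3 lower, with Hrk among the latter), which is 57.6% against 53.8% of all genes, of which 27.7% were higher and 26.1% lower. The median log2 fold change of the 33 genes was 0.26 in 2D and 0.38 in 3D, against -0.003 and 0.001 over all genes. The lean to D2.OR in 2D depended in part on the scaling: with the library total alone as the scale, or with log2 TPM values, 16 genes passed, of which 13 were higher and 3 lower: Bcl2 and Fadd dropped out and Casp6 and Diablo came in, both lower. The split of all genes moved too, to 20.2% higher and 32.1% lower with the library total alone, 19.3% and 27.8% with log2(TPM + 1), and 20.6% and 28.6% with log2(TPM + 0.1). Altogether 14 genes passed in both cultures, all in the same direction, which is 87.5% of the calls in 2D and 73.7% of those in 3D. Over all genes, the calls shared by both cultures were 76.9% of those in 2D and 71.2% of those in 3D. The 6 libraries of 2D and the 6 of 3D are separate samples, but they share 1 estimate of the gene's variability.

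A difference of at least 2-fold was called for 8 of the 33 genes in 2D (24.8% of all genes) and for 8 in 3D (27.4% of all genes). Over both cultures these were 11 genes: Casp8, Casp12, Casp1, Mlkl, Ripk1, Tnfrsf1b, Bad, Bok, Bcl2 and Birc2, which were higher in D2.OR, and Hrk, which was lower. The 3 libraries of 1 line did not overlap those of the other for 17 of 33 genes in 2D (background 53.2%) and for 18 in 3D (background 60.1%). Without the replicate 1 libraries, 19 genes passed in 2D (background 53.8%) and 21 in 3D (background 56.9%).

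**Figure D2:**
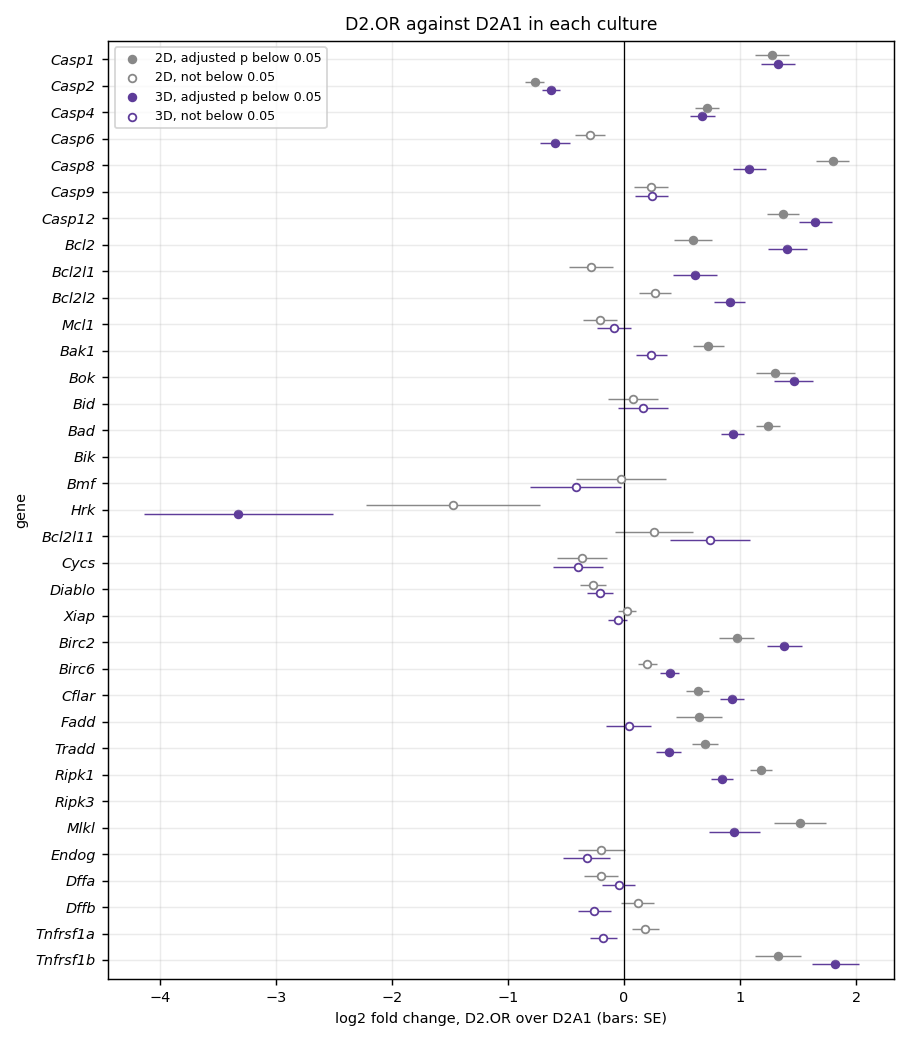
Log2 fold change of D2.OR over D2A1 for the 33 tested genes in 2D (grey) and 3D (purple), with bars for 1 SE from edgeR and filled points for an adjusted p below 0.05. Filled points lie mostly right of 0, the exceptions being Casp2 in both cultures and Casp6 and Hrk in 3D. Bik and Ripk3 have no point because they were not tested.

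Among the apoptotic caspases the lines differed most in Casp8, which encodes the initiator of the receptor route (chr1:58795374-58847503, plus strand, GRCm38). In 2D its level was 29.7, 20.2 and 21.3 TPM in D2A1 replicates 1 to 3 and 74.5, 78.7 and 81.1 TPM in D2.OR. In 3D it was 26.4, 26.8 and 24.6 TPM in D2A1 and 55.6, 55.1 and 60.4 TPM in D2.OR. No D2A1 library came near the lowest D2.OR library in either culture. By the count fit the log2 fold change of Casp8 was 1.80 ± 0.15 (SE, n = 3 against 3) in 2D, with an edgeR adjusted p of 1.82e-05, and 1.08 ± 0.14 in 3D, with an edgeR adjusted p of 0.000274.

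Casp2, an initiator linked to DNA damage and to errors in chromosome number, went the other way. Its level was 22.4, 29.8 and 27.2 TPM in D2A1 2D and 12.2, 15.3 and 14.9 TPM in D2.OR 2D. In 3D the 3 D2A1 libraries held 19.4, 22.8 and 23.3 TPM and the 3 D2.OR libraries 12.2, 15.96 and 14.5 TPM. The groups did not overlap, and Casp2 was the 1 gene of the 33 that passed the edgeR test as lower in D2.OR in both cultures, with log2 fold changes of -0.77 ± 0.08 in 2D and -0.63 ± 0.08 in 3D (edgeR adjusted p of 7.04e-05 and 0.0002). Casp9, the initiator that cytochrome c switches on, did not pass, with log2 fold changes of 0.23 ± 0.14 and 0.24 ± 0.14. Casp6, which acts as an executioner, had a log2 fold change of -0.29 ± 0.13 in 2D (edgeR adjusted p of 0.0839) and was lower in D2.OR in 3D, by -0.60 ± 0.13 (edgeR adjusted p of 0.00377). The 3D libraries of Casp6 nevertheless overlapped between the lines, at 52.0 to 101 TPM in D2A1 and 41.3 to 55.3 TPM in D2.OR, and the call was lost without the replicate block (edgeR adjusted p of 0.0666) and without replicate 2.

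The 3 inflammatory caspases were all higher in D2.OR in both cultures. Casp1 encodes the enzyme that matures interleukin-1β in inflammasomes, Casp4 (also known as caspase-11) the sensor of intracellular lipopolysaccharide, and Casp12 a caspase of the endoplasmic reticulum. Casp12 was at 82.5, 72.5 and 90.9 TPM in D2A1 2D and at 195, 214 and 181 TPM in D2.OR 2D. In 3D it was at 55.2, 43.4 and 36.6 TPM in D2A1 and at 147, 144 and 150 TPM in D2.OR. Every D2.OR library thus lay above every D2A1 library, and the log2 fold changes of Casp12 were 1.37 ± 0.14 in 2D and 1.65 ± 0.14 in 3D (edgeR adjusted p of 6.34e-05 and 2.11e-05).

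Casp1 stood at 70.9, 94.4 and 95.5 TPM in D2A1 2D and at 146, 224 and 207 TPM in D2.OR 2D. Its levels in 3D were 70.2, 67.6 and 64.9 TPM in D2A1 and 135, 174 and 222 TPM in D2.OR. The spread among the D2.OR libraries was wider than among those of D2A1, and the log2 fold changes were 1.27 ± 0.15 in 2D and 1.33 ± 0.15 in 3D (edgeR adjusted p of 0.000133 and 0.000101). Casp4 had the smaller difference of the 3, with log2 fold changes of 0.71 ± 0.11 in 2D and 0.67 ± 0.11 in 3D. Summed per library, the 3 genes came to 182 to 233 TPM in D2A1 2D and 390 to 505 TPM in D2.OR 2D, and to 128 to 149 TPM against 324 to 420 TPM in 3D.

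**Figure D3:**
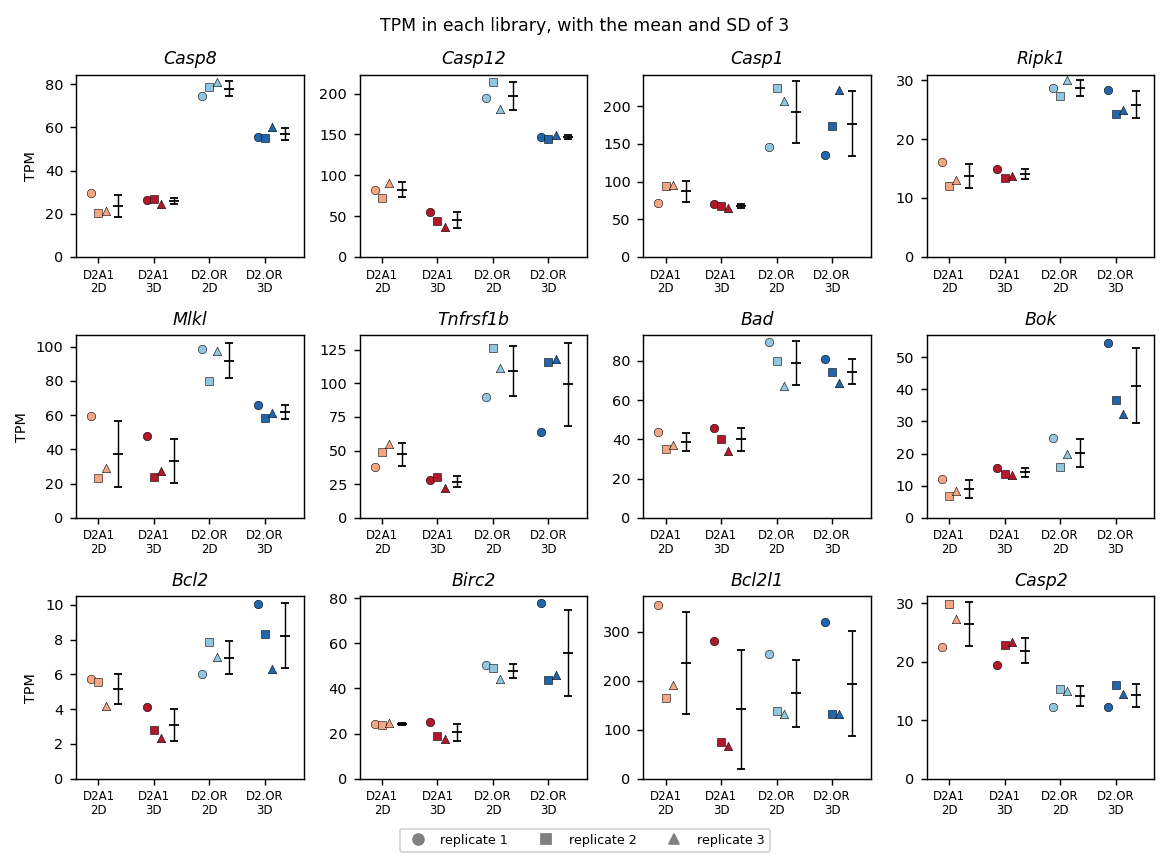
TPM of 12 genes in each library by group, with a marker shape for each replicate number and the mean ± SD of 3 libraries at the right of each group. The D2.OR libraries lie above those of D2A1 for Casp8, Casp12, Casp1, Ripk1, Tnfrsf1b, Bad and Birc2 in both cultures and below them for Casp2, while replicate 1 (circles) lies far above the others of its group for Bcl2l1.

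These 3 caspase genes lie side by side on chromosome 9, all on the plus strand (GRCm38): Casp1 at chr9:5298517-5307265, Casp4 at chr9:5308828-5336783 and Casp12 at chr9:5345430-5373032. Birc2, which was also higher in D2.OR, lies farther along at chr9:7818227-7837064 on the minus strand. Of 12 other tested genes between Casp1 and Birc2 and within 250 kb on either side, 4 were higher and 4 lower in D2.OR in 2D, and 4 were higher and 3 lower in 3D. Among those higher was Birc3, the neighbour of Birc2 and the gene of a related IAP, with a log2 fold change of 1.62 in 2D. Cflar and Casp8 are likewise neighbours, on chromosome 1. Of 10 other tested genes in the same kind of window around them, 1 was higher and 5 lower in D2.OR in 2D, and 0 were higher and 4 lower in 3D by the edgeR test. Of all genes tested, 49.8% differed between the lines in 2D and 53.8% in 3D, in either direction. These windows were chosen after the values had been seen.

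The promoters of several members that were higher in D2.OR are printed here because they let the sequence before the start site be read beside the difference. They are 300-base windows, 250 bases before and 50 after the annotated start, from RefSeq on GRCm38.p6, in the direction of transcription. Promoters were given for 33 of the 35 genes, all but Bik and Tradd, and for Casp4 and Ripk1 1 of their 2 windows is printed. The other Ripk1 window holds no match to the motifs, and neither do the windows of Casp8, Bok, Bad, Birc2, Mlkl, Bcl2 and Bak1, which were also higher in D2.OR in 2D and are not printed, so the printed windows hold more matches than the members at large. Capitals mark matches on either strand to any of 5 motifs: the interferon-stimulated response element (GAAA, any 2 bases, GAAA), the gamma-activated site (TTCNNNGAA), an NF-kB site (GGG, any 2 bases, TTTCC), an AP-1 site (TGANTCA) and an E2F site (TTTCCCGC).
Casp1, chr9:5298267-5298566, plus strand: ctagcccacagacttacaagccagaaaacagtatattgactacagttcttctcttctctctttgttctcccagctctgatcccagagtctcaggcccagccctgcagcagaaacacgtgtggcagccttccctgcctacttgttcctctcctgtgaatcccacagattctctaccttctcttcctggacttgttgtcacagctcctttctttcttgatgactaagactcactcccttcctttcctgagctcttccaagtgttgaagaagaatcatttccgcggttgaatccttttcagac
Casp4, chr9:5308599-5308898, plus strand: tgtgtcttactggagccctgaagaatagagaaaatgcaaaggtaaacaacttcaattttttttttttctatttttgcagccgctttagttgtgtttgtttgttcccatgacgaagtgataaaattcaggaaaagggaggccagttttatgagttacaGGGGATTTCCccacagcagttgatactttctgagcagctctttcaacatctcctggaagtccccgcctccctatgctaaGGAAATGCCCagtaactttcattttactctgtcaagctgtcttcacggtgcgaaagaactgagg
Casp12, chr9:5345226-5345525, plus strand: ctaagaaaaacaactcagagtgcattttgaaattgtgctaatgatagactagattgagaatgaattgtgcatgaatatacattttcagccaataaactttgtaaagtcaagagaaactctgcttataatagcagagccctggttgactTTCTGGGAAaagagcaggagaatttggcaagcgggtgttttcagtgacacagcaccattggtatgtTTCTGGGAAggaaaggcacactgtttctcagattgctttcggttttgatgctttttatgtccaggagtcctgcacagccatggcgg
Cflar, chr1:58711241-58711540, plus strand: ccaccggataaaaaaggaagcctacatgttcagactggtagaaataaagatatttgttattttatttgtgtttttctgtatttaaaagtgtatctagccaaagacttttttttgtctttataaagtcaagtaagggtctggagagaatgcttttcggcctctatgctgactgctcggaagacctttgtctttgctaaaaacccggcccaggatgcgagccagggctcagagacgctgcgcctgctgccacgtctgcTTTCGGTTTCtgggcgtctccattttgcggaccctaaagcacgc
Ripk1, chr13:34002624-34002923, plus strand: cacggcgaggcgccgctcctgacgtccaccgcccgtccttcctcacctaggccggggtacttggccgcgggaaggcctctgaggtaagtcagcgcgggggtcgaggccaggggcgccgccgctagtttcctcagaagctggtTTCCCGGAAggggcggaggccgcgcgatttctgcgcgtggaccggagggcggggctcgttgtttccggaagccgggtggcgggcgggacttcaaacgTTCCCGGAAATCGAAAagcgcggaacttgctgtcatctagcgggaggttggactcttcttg
Tnfrsf1b, chr4:145246821-145247120, minus strand: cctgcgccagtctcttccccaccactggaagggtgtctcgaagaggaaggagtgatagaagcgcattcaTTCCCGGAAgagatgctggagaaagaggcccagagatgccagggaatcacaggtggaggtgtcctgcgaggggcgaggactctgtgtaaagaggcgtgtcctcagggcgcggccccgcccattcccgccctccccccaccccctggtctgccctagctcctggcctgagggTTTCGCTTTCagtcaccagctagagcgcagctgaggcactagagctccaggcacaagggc

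The Casp4 window holds 2 NF-kB matches, the Casp12 window 2 gamma-activated site matches, and the Casp1 window none of the 5 motifs. The Ripk1 window holds 2 gamma-activated site matches and 1 interferon-stimulated response element match, and the latter overlaps 1 of the former by the letters GAA. The windows of Tnfrsf1b and Cflar also hold the interferon-stimulated response element. Counted by gene, 3 of 33 members hold this element (9.09%) against 3.99% of 27025 genes, 4 hold the gamma-activated site (12.1% against 9.55%), 3 the NF-kB site (9.09% against 1.89%; Bcl2l1, Casp4 and Mcl1), 2 the E2F site (6.06% against 1.24%; Casp2 and Fadd) and 0 the AP-1 site (8.97% of all genes). The motifs were chosen with the values of these genes known, and a match says only that the letters are present in these windows.

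On the receptor side, Tnfrsf1a, the gene of the main TNF receptor with a death domain, did not pass (log2 fold changes of 0.18 ± 0.11 in 2D and -0.18 ± 0.11 in 3D). Tnfrsf1b, the gene of the TNF receptor without a death domain, was at 37.8, 49.0 and 54.5 TPM in D2A1 2D and at 89.9, 126 and 111 TPM in D2.OR 2D. Its 3D levels were 28.2, 30.1 and 22.3 TPM in D2A1 and 63.6, 116 and 118 TPM in D2.OR. The groups did not overlap, with log2 fold changes of 1.33 ± 0.20 in 2D and 1.82 ± 0.20 in 3D (edgeR adjusted p of 0.000558 and 9.72e-05). Of the genes that act at the receptors, Cflar was higher in D2.OR by 0.63 ± 0.10 in 2D and 0.93 ± 0.10 in 3D on the log2 scale, and Tradd by 0.70 ± 0.11 and 0.38 ± 0.11. The 3D call of Tradd was lost without D2A1 3D replicate 1 or 3 or D2.OR 3D replicate 2, without all libraries of replicate 2 or of replicate 3, and with the library total alone as the scale. Fadd was higher in 2D (0.64 ± 0.20, edgeR adjusted p of 0.024), but this call was lost without D2A1 2D replicate 2 or 3 or D2.OR 2D replicate 3 and in several other settings, and in 3D its log2 fold change was 0.04 ± 0.20. Within a library, the ratio of Casp8 to Cflar in TPM was 0.531 to 0.900 in D2A1 and 1.14 to 1.70 in D2.OR.

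The necroptosis genes split. Ripk1, which encodes the kinase at the branch between survival and death signaling, was at 16.1, 12.04 and 13.1 TPM in D2A1 2D and at 28.6, 27.3 and 30.0 TPM in D2.OR 2D. Its levels in 3D were 14.96, 13.4 and 13.8 TPM in D2A1 and 28.4, 24.2 and 24.9 TPM in D2.OR. The libraries of each line lay close together, and the log2 fold changes of 1.18 ± 0.09 in 2D and 0.84 ± 0.09 in 3D were many times their SE (edgeR adjusted p of 1.70e-05 and 0.000105). Ripk1 overlaps Serpinb6a on the other strand by 432 bases, and that gene, at 95.2 to 292 TPM, was also higher in D2.OR (log2 fold change of 1.61 in 2D), so the share of reads between the 2 genes is uncertain where they overlap. On the same strand Ripk1 overlaps Gm17084 by 511 bases, a gene at 5.09 to 17.6 TPM that was also higher in D2.OR (1.15 in 2D and 1.25 in 3D), and the split of reads between these is uncertain as well.

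Mlkl, which encodes the protein that breaks the membrane in necroptosis, was at 59.3, 23.6 and 29.3 TPM in D2A1 2D and at 98.5, 79.9 and 97.5 TPM in D2.OR 2D. In 3D it was at 47.7, 24.1 and 27.6 TPM in D2A1 and at 66.2, 58.3 and 61.3 TPM in D2.OR. Replicate 1 was the highest of its group in all 4 groups, yet the lines did not overlap, and the log2 fold change of Mlkl was 1.52 ± 0.22 in 2D and 0.95 ± 0.22 in 3D (edgeR adjusted p of 0.000557 and 0.00571). The 3D call was lost without the 4 libraries of replicate 2 (edgeR adjusted p of 0.0779) or of replicate 3 (0.0722). Ripk3, which encodes the kinase that activates MLKL, was at 0 to 0.21 TPM throughout. Its level was at most 0.10 TPM in D2A1 and in D2.OR 2D and 0.07 to 0.21 TPM in D2.OR 3D, too low to be tested.

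The 4 BCL2-like survival genes behaved differently from each other. Mcl1 did not pass in either culture, with log2 fold changes of -0.21 ± 0.14 in 2D and -0.09 ± 0.14 in 3D. Mcl1 and Bcl2l1 together made up 88.4% to 96.6% of the summed TPM of the 4 genes in every library. Bcl2 stood at 5.72, 5.55 and 4.18 TPM in D2A1 2D and at 6, 7.87 and 7 TPM in D2.OR 2D. In 3D the gap was wider, with 4.10, 2.81 and 2.35 TPM in D2A1 and 10.04, 8.30 and 6.33 TPM in D2.OR. The groups did not overlap in either culture, and the log2 fold change was 0.59 ± 0.16 in 2D and 1.41 ± 0.17 in 3D (edgeR adjusted p of 0.0153 and 0.000146). The 2D call was lost without D2A1 2D replicate 3, D2.OR 2D replicate 2 or D2.OR 2D replicate 3, without all libraries of replicate 2 or of replicate 3, with the library total alone as the scale, and with limma on log2(TPM + 1) or log2(TPM + 0.1).

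Bcl2l1 showed how far 1 batch could stand apart. It was at 355, 164 and 191 TPM in D2A1 2D, 282, 75.4 and 67.2 TPM in D2A1 3D, 254, 138 and 132 TPM in D2.OR 2D, and 319, 132 and 132 TPM in D2.OR 3D. Replicate 1 was the highest in all 4 groups, and the libraries of the 2 lines overlapped. With the batch in the fit, Bcl2l1 was not called in 2D (-0.29 ± 0.19) and was higher in D2.OR in 3D (0.61 ± 0.19, edgeR adjusted p of 0.0235). Without the replicate block the 3D value was 0.47 with an edgeR adjusted p of 0.515, and the call was also lost without D2A1 3D replicate 2 or 3 or any 1 D2.OR 3D library, without all libraries of replicate 2 or of replicate 3, and with the library total alone as the scale. Bcl2l2 (BCL-W) was higher in D2.OR in 3D by 0.91 ± 0.14 on the log2 scale and had 0.27 ± 0.13 in 2D, though it overlaps the gene Gm20521 by 4794 bases on the same strand. Replicate 1 was the highest of its group in all 4 groups for 5 of the 33 genes (Bad, Bcl2l1, Bid, Bok and Mlkl), which is 15.2% against 9.93% of all genes, and the lowest for 6 (18.2% against 7.08%).

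Both pore-forming effectors among the members were higher in D2.OR in 2D, whereas the third, Bax, which is not among the 35, was lower in D2.OR by -0.27 ± 0.10 in 2D and -0.55 ± 0.10 in 3D on the log2 scale (edgeR adjusted p of 0.0482 and 0.00175). Bok, a relative of BAK and BAX that is turned over at the endoplasmic reticulum, was at 12.02, 6.83 and 8.20 TPM in D2A1 2D and at 24.9, 15.9 and 19.8 TPM in D2.OR 2D. In 3D the levels were 15.6, 13.6 and 13.2 TPM in D2A1 and 54.3, 36.7 and 32.3 TPM in D2.OR. No library of 1 line overlapped the other within a culture, and the log2 fold changes of Bok were 1.303 ± 0.17 in 2D and 1.46 ± 0.16 in 3D (edgeR adjusted p of 0.000238 and 0.000111). Bak1 was higher in 2D by 0.73 ± 0.13 (edgeR adjusted p of 0.00189), and had 0.23 ± 0.13 in 3D (edgeR adjusted p of 0.162). The whole span of Bak1 lies within Ggnbp1 on the other strand, a gene with 2.57 to 16.1 TPM that was lower in D2.OR.

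Of the BH3-only genes, Bad had the most even difference. Its level was 43.8, 35.3 and 37.2 TPM in D2A1 2D and 89.6, 79.8 and 67.0 TPM in D2.OR 2D. In 3D it was 45.6, 40.4 and 33.9 TPM in D2A1 and 81.0, 74.2 and 68.5 TPM in D2.OR. The groups did not overlap, with log2 fold changes of 1.24 ± 0.10 in 2D and 0.94 ± 0.10 in 3D (edgeR adjusted p of 1.89e-05 and 8.55e-05). Bad overlaps Gpr137 on the other strand by 590 bases, and Gpr137 was also higher in D2.OR (0.73 in 2D), so reads of the overlap may belong to either. Bid, the link from caspase-8 to the mitochondrion, did not pass (0.08 ± 0.22 and 0.16 ± 0.22), nor did Bmf (-0.03 ± 0.39 and -0.42 ± 0.39) or Bcl2l11, the gene of BIM (0.26 ± 0.34 and 0.74 ± 0.34). The summed TPM of the 4 survival genes was 3.62 to 5.185 times that of the BH3-only genes in D2A1 and 2.43 to 4.95 times in D2.OR. In 2D the lines did not overlap in this ratio (3.62 to 5.15 and 2.54 to 3.25), in 3D they did (3.72 to 5.185 and 2.43 to 4.95), and within each batch and culture D2A1 had the higher ratio.

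Hrk, a BH3-only gene known from neurons, was detected with few reads. It had 2, 11 and 24 counts in the D2A1 2D libraries and 14, 13 and 36 in D2A1 3D. In D2.OR it had 7, 1 and 4 counts in 2D and 3, 1 and 1 in 3D. Set against a floor of 3 counts in each library, the level of Hrk in D2A1 3D exceeded that in D2.OR 3D at least 6.429-fold, while in 2D it did not pass. Hrk reached the filter on low counts only through D2A1, where it was high, so its call in 3D was not independent of the filter and is given as a description. The Hrk call was lost without D2.OR 3D replicate 3 (edgeR adjusted p of 0.0513), without all libraries of replicate 2 or of replicate 3, and with limma on log2(TPM + 1).

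The IAP genes differed in size of effect. Birc2, which encodes the ubiquitin ligase cIAP1 of TNF receptor complexes, was at 24.2, 23.7 and 24.8 TPM in D2A1 2D and at 50.4, 48.9 and 44.3 TPM in D2.OR 2D. In 3D the levels were 24.99, 19.1 and 17.7 TPM in D2A1 and 77.7, 43.5 and 46.1 TPM in D2.OR. The groups did not overlap, and the log2 fold changes of Birc2 were 0.97 ± 0.15 in 2D and 1.38 ± 0.15 in 3D (edgeR adjusted p of 0.000718 and 9.33e-05). Birc6, which encodes a very large IAP, was higher in 3D by 0.39 ± 0.08 (edgeR adjusted p of 0.00302), a call that was lost without the replicate block (edgeR adjusted p of 0.0604) and without replicate 2 or 3. Xiap, the gene of the direct caspase inhibitor, lay at 34.2 to 42.9 TPM in all 12 libraries and did not pass (0.02 ± 0.08 and -0.06 ± 0.08).

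The mitochondrial factors and the DNA fragmentation genes held no call between the lines. Cycs had log2 fold changes of -0.36 ± 0.21 in 2D and -0.40 ± 0.21 in 3D, Diablo (the IAP antagonist SMAC) of -0.27 ± 0.11 and -0.20 ± 0.11, and Endog (a mitochondrial nuclease) of -0.20 ± 0.20 and -0.32 ± 0.20. Dffa and Dffb, the inhibitor and the nuclease of the caspase-activated DNase, lay between -0.26 and 0.12. By edgeR, 0 of these 5 genes passed in either culture, and Diablo in 2D was the 1 value at an unadjusted p under 0.05 (0.0386). The libraries of the 2 lines did not overlap for Diablo in either culture, and it passed as lower in D2.OR in 2D with limma on log2(TPM + 1) or log2(TPM + 0.1) and without D2A1 2D replicate 1, and in both cultures with the library total alone as the scale. RSEM gave Diablo a gene length (the mean over its transcripts, weighted by their share) of 1535 to 1554 bases in D2A1 and 1428 to 1512 in D2.OR, and Bad one of 959 to 1000 and 1017 to 1038 bases. These were the 2 of 32 members whose length did not overlap between the lines (6.25% against 3.90% of 11213 genes with at least 50 counts in every library), and the length moves with the mix of transcripts assigned to a gene.

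The comparison of 3D with 2D asked what each line changed when placed on Matrigel. In D2.OR, 1 of the 33 genes passed (3.03%), against 1.62% of all genes, and 0 passed with a 2-fold change (1.02% of all genes). This was Bok, which rose by 0.98 ± 0.16 on the log2 scale from 15.9 to 24.9 TPM in 2D to 32.3 to 54.3 TPM in 3D (edgeR adjusted p of 0.0301). The groups did not overlap, and Bok was higher in 3D in each of the 3 batches, by 0.731 to 1.195 on the log2 scale (49.1% of all genes kept 1 direction in the 3 batches), but the call was lost without the replicate block (edgeR adjusted p of 0.136) and without any 1 of the 6 D2.OR libraries. DESeq2 called 5 genes here, against 7.26% of all genes. Some of the cell type markers moved with this comparison. In 2D the listed adipocyte genes Plin1 and Cidec were at 0.15 to 1.36 TPM and 0 to 0.36 TPM. In 3D they were at 6.33 to 75.0 TPM and 0.51 to 10.9 TPM. Both are given as a description, since they reached the filter on low counts mainly through D2.OR 3D. The epithelial gene Cdh1 fell by 1.36 ± 0.21 on the log2 scale (edgeR adjusted p of 0.0215). Adipoq, a defining adipocyte gene, was too low to be tested, at 0 to 0.25 TPM in 2D and 0.16 to 2.03 TPM in 3D. The part of these markers in the member values was not tested. The next smallest p values belonged to Bmf and Casp4, which did not pass. Bmf, a BH3-only gene known from the loss of matrix attachment, was at 40.2, 23.0 and 31.6 TPM in 2D and at 9.71, 8.26 and 14.3 TPM in 3D, a log2 fold change of -1.78 ± 0.40 with an edgeR adjusted p of 0.0656.

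In D2A1, 3 of the 33 genes passed (9.09%) against 3.48% of all genes, and 0 of them changed by 2-fold (1.82% of all genes). Bok rose by 0.82 ± 0.16 on the log2 scale, from 6.83 to 12.02 TPM in 2D to 13.2 to 15.6 TPM in 3D, Casp12 fell by 0.76 ± 0.14, and Bcl2l1 fell by 0.86 ± 0.19 (edgeR adjusted p of 0.0420, 0.0360 and 0.0478). The 2D and 3D libraries did not overlap for Bok and Casp12 and did overlap for Bcl2l1. All 3 calls were lost without the replicate block (0 of 33 genes) and without any 1 of the 8 libraries of replicates 2 and 3. DESeq2 called 12 genes here, against 23.1% of all genes. No cell type marker passed by edgeR, and Pdgfrb had the smallest p of them, with -2.86 ± 0.67 (edgeR adjusted p of 0.0513). The part of the markers in the member values was not tested. Bmf had -1.39 ± 0.40 (edgeR adjusted p of 0.0665), but its change differed between the batches, at -0.07, -1.30 and -2.68 in replicates 1, 2 and 3.

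The replicate 1 libraries, and those of D2A1 most, weighed on these counts. Leaving out D2A1 2D replicate 1 alone took the D2A1 calls from 3 to 13 (30.3% of all genes) and the interaction calls from 0 to 7 (14.5%), and leaving out D2A1 3D replicate 1 gave 9 (12.7%) and 1 (2.93%). Without D2.OR 2D or 3D replicate 1, the D2A1 calls were 3 (2.68% of all genes) and 2 (2.08%). The interaction calls were then 0 in either case (0.00578% and 0.237% of all genes). Without all 4, 17 of the 33 genes passed in D2A1 (6 higher and 11 lower in 3D) against a background that also grew, to 36.3% of all genes, and 4 passed in D2.OR (Bok higher and Bmf, Casp8 and Mlkl lower) against 8.38%. For the 10 genes whose 2D and 3D libraries did not overlap in D2.OR, 1 was higher and 9 lower in 3D (30.3% of the members against 22.7% of all genes). In D2A1 there were also 10, of which 4 were higher and 6 lower in 3D (30.3% against 26.0%). All 12 libraries share 1 fit, so the calls within a line also depended on libraries of the other line, and with a single library per batch and group a batch effect within 1 group cannot be told apart from that library.

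**Figure D4:**
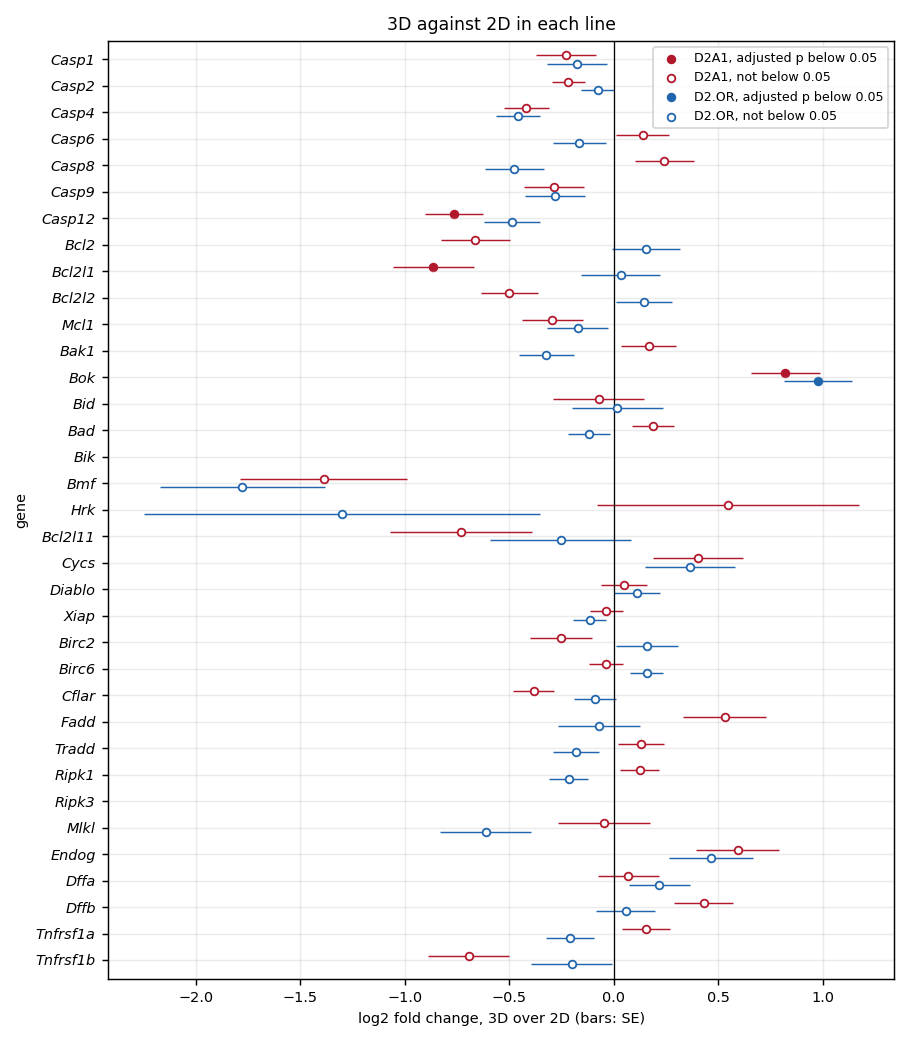
Log2 fold change of 3D over 2D for the 33 tested genes in D2A1 (red) and D2.OR (blue), with bars for 1 SE from edgeR and filled points for an adjusted p below 0.05. The filled points are Bok in both lines and Casp12 and Bcl2l1 in D2A1, and the open points of Bmf lie farthest to the left among the abundant genes.

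Whether the lines differed in their response to 3D was tested as the interaction of line and culture. By edgeR, 0 of the 33 genes passed, against 0.0238% of all genes (4 of 16823), and 6 of the 33 had an unadjusted p under 0.05 (18.2% against 17.8% of all genes). The DESeq2 likelihood-ratio test called 4 of them, Bcl2, Bcl2l1, Bcl2l2 and Casp8 (5.96% of all genes), and limma on log2 TPM called 0. Casp8 had the smallest p: its log2 fold change from 2D to 3D was 0.24 ± 0.14 in D2A1 and -0.47 ± 0.14 in D2.OR, a difference of -0.72 ± 0.20 (edgeR adjusted p of 0.154). The 3 survival genes pointed the other way. Bcl2 had -0.66 ± 0.17 in D2A1 and 0.15 ± 0.16 in D2.OR, a difference of 0.82 ± 0.23, Bcl2l2 had -0.50 ± 0.13 and 0.14 ± 0.13, a difference of 0.64 ± 0.19, and Bcl2l1 had -0.86 ± 0.19 and 0.03 ± 0.19, a difference of 0.90 ± 0.27. Without the replicate 1 libraries 8 of the 33 genes passed (4 higher and 4 lower), against 17.8% of all genes. A larger response in 1 line is thus given here as a value and not as a call.

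Another 37 genes of the same pathways, listed by their known role and not among the 35, were examined beside them, of which 32 were tested. This list was chosen with earlier results of these data known. Its shares are therefore given beside those of all genes as descriptions only. In 2D 21 of these differed between the lines (15 higher and 6 lower in D2.OR, 65.6% against 49.8% of all genes), and in 3D 24 (16 higher and 8 lower, 75.0% against 53.8%). Their median log2 fold changes of 0.40 and 0.42 stayed the same with the genes at the floor set to their bound. Named first by the order of p in 2D was Pmaip1, which encodes the BH3-only protein NOXA, with at most 1 count in any D2A1 library and 314 to 609 counts in the D2.OR libraries. Against a floor of 3 counts in each library, the level of Pmaip1 in D2.OR was at least 158.8-fold that in D2A1 in 2D and at least 158.9-fold in 3D. Pmaip1 reached the filter on low counts only through D2.OR, where it was high, so this difference was not independent of the filter and is given as a description. Gsdmd, which encodes the pore protein cut by inflammatory caspases, was at 6.81 to 9.08 TPM in D2A1 2D and 30.8 to 34.0 TPM in D2.OR 2D (log2 fold change of 2.11 ± 0.14, edgeR adjusted p of 6.07e-06).

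Between cultures, 2 of the 32 genes passed in D2.OR (6.25%, with 1 up and 1 down on Matrigel, against 1.62% of all genes), among them Dfna5, the gene of gasdermin E, which rose by 1.04 ± 0.19 in 3D (edgeR adjusted p of 0.0383). In D2A1 the 1 call (3.12% against 3.48% of all genes) was Fas, a death receptor gene, which rose by 1.68 ± 0.38, from 4.61 to 6.32 TPM in 2D to 9.18 to 20.2 TPM in 3D (edgeR adjusted p of 0.0489). Without the replicate block, 0 of the 32 passed in either line. For the interaction, 0 of the 32 passed by edgeR, 4 had an unadjusted p under 0.05 (12.5% against 17.8% of all genes), and DESeq2 called 4, against 5.96% of all genes. The smallest p was that of Tnfrsf25, a death domain receptor gene, with a difference of 3.15 ± 0.66 (edgeR adjusted p of 0.101). This gene was low and uneven, with at most 282 counts in any library. In CPM (counts set against the scaled library total, mean ± SD), D2A1 had 0.90 ± 0.39 in 2D and 0.22 ± 0.17 in 3D. D2.OR had 0.88 ± 0.41 in 2D and 2.22 ± 2.19 in 3D. The 2D and 3D libraries of Tnfrsf25 overlapped in D2.OR and did not in D2A1.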

How the data were processed

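RNA of 12 mouse cultures was sequenced, 3 for each of 4 groups. The authors trimmed reads with Trimmomatic 0.32, checked them with FastQC 0.11.4, aligned them to GRCm38 with STAR 2.5.3 and quantified genes of GENCODE M15 with RSEM 1.3.0. Whether strand was used is not given in the sources used here. The deposited values are RSEM expected counts and TPM (transcript share scaled to a fixed total) for each library. The deposited FPKM values and effective lengths were not used, and the deposited series table repeats the TPM values.

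Expected counts were rounded to whole numbers. Genes were kept by the expression filter of edgeR 4.0.16 (R 4.3.3), 16823 of 52550, scaled by TMM and fitted with a quasi-likelihood model on group and batch. Each contrast was adjusted over all 16823 genes by the Benjamini-Hochberg method, and the SE is the log2 fold change divided by the square root of F. DESeq2 1.42.0, limma 3.58.1 on log2 TPM, other scalings and filters, and fits without a library or a batch were alternatives.

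Replicate numbers mark the batch in the labels. The deviation of each library from its group mean was correlated with that of libraries of other groups. Those with the same number correlated at 0.076 to 0.512 over 18 pairs, and those with different numbers at -0.432 to 0.296. The ranges overlap. Deviations from a group mean cancel within the group, so the values for different numbers are not separate evidence. The labels do not say whether replicates were separate cultures in other respects, so p values measure the spread between these samples. Library totals set the depth, and counting error is small for all genes named except those with under 40 counts, such as Hrk.

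The members and lists were chosen with earlier results of these data known. Named genes were those past an adjusted p of 0.05 with a log2 fold change of at least 1 between the lines, and, in contrasts with no such gene, the 3 with the smallest p. Genes below 2-fold that are named beyond this were chosen after their values were seen, as were the windows, motifs and the fit of the alternatives to the second list. From the second list, genes with the smallest p in each contrast were named (up to 3 in 2D and 1 in each other contrast), except 1 that is not reported here. Dfna5 and Bax were named after their values were seen.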

Additional observations from a re-analysis of the deposited data

How the results depend on the processing

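All calls of the 33 tested genes between the lines kept their direction under every alternative. In 2D 14 of 16 calls and in 3D 13 of 19 held under all of them, and the exceptions were Bcl2 and Fadd in 2D and Bcl2l1, Birc6, Casp6, Hrk, Mlkl and Tradd in 3D. With libraries or batches left out, the genes called numbered 14 to 19 in 2D, 13 to 21 in 3D, 0 to 4 for 3D against 2D in D2.OR, 0 to 17 in D2A1 (17 without replicate 1) and 0 to 8 for the interaction. The corresponding ranges of the second list, with alternatives chosen after seeing the data, were 11 to 25, 16 to 27, 0 to 6, 0 to 15 and 0 to 8. The upper ends of the second list were all reached without replicate 1, where 53.8%, 56.9%, 8.38%, 36.3% and 17.8% of all genes passed.

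The calls for 3D against 2D depended on the analysis. In D2.OR the 1 member called became 0 without the replicate block (0.119% of all genes), 5 with DESeq2 (7.26%), 2 with no filter (1.39%) and 4 with only the 6 libraries compared (5.16%). In D2A1 the 3 became 0 without the replicate block (0.309%), 12 with DESeq2 (23.1%), 5 with no filter (3.78%), 6 with limma on log2(TPM + 0.1) (6.75%) and 0 with only the 6 libraries compared (0.0981%). For the interaction DESeq2 called 4 (5.96%). In the second list, D2.OR went from 2 to 0 without the block, 6 with DESeq2, 1 with the library total alone and 5 with only the 6 libraries compared. D2A1 went from 1 to 0 without the block, 11 with DESeq2, 2 with RLE size factors, no filter or limma on log2(TPM + 1), 5 with limma on log2(TPM + 0.1) and 0 with only the 6 libraries compared, and DESeq2 called 4 for the interaction. The cause was not tested. The library total alone moved the median of all genes by -0.16 in 2D and -0.10 in 3D between the lines. Leaving out a batch leaves 2 libraries a group, and low genes such as Hrk, Bik and Ripk3 are limited by depth.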
